A study of Mus musculus with 24 samples.

Results

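The glucocorticoid receptor and a small set of genes tied to it were followed in sorted mouse endothelium. The set held 8 genes, chosen by name with earlier results of these data known. The receptors were Nr3c1 and Nr3c2, the activating enzyme was Hsd11b1, and the induced targets were Fkbp5, Tsc22d3, Sgk1, Klf9 and Zbtb16. A probe was assigned to a gene through the transcript accession in the array files, and the brightest probe per gene was used. By this rule 7 of the 8 genes had a probe, out of 18745 gene symbols with a probe on the array, with 16 probes in all. Zbtb16 had no assigned probe and was not analysed here.

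Wild-type C57BL/6 mice (WT) and galectin-3 (-/-) mice (KO) received chow (12% of calories from fat) or a high-fat diet (HFD, 60%) for 8 weeks. In each of 3 independent experiments, aorta and hindlimb skeletal muscle of 3 to 4 animals per group were pooled, and live CD105+/CD45- cells were sorted from each tissue. This gave 24 single-colour arrays, with 3 arrays in each of 8 groups: aorta or muscle, WT or KO, chow or HFD. All groups shared the same sort and RNA amplification. Animals were pooled, so the arrays carry no spread between individual mice.

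Values are log2 signals set against the 75th percentile over all spots of that array, so a gene at 0 is as bright as that percentile. Signals of different probes are not comparable as amounts of RNA. Between 59.5% and 75.7% of spots per array were well above background, and no spot was saturated. The 24 arrays lay on 6 slides, each holding 1 tissue of 1 experiment. They were scanned in 2 sessions, with experiment 1 of both tissues in 1 session and experiments 2 and 3 in the other. The probe for Lgals3, the targeted gene, was brighter on the array labelled KO in 11 of 12 matched pairs, by 1.28 (SE 0.27, limma adjusted p = 0.09). The study's methods describe checks of the deletion on DNA, RNA and protein. Whether this probe lies inside the deleted part was not tested, so it checks no label, and strain is given below as labelled. The endothelial marker list (Pecam1, Cdh5, Tek and 7 others) had a summed log2 signal of 6.81 to 8.44 in aorta and 8.39 to 8.95 in muscle. The lists for other cells also gave signal, with fibroblast markers at 8.14 to 9.25 in aorta and 4.54 to 7.79 in muscle, and skeletal muscle fibre markers at 0.92 to 3.27 and 4.77 to 7.61.

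Glucocorticoids cross the cell membrane and bind the glucocorticoid receptor, the product of Nr3c1, which is held in the cytoplasm by chaperones. The loaded receptor enters the nucleus, binds palindromic response elements in DNA and raises genes such as Fkbp5, Tsc22d3 and Sgk1, while it lowers many inflammatory genes. The mineralocorticoid receptor, Nr3c2, binds the same hormones, and Hsd11b1 regenerates active glucocorticoid from its inactive 11-keto form inside the cell. Endothelium is a known site of these responses, in which glucocorticoids restrain cytokines and adhesion molecules.

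The response element is shown here because Sgk1, one of the measured targets, carried it close to a start site. RefSeq promoter windows (GRCm38.p6, 300 bases each) were read for Fkbp5, Tsc22d3, Sgk1, Nr3c2, Hsd11b1 and Klf9. Sgk1 had 6 windows, Tsc22d3 had 3 and the other genes had 1 each, so Sgk1 and Tsc22d3 had more places for a match. The full palindrome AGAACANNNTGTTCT, searched on both strands, was present in 3 of 32851 windows (0.00913%), and 1 of these belonged to Sgk1. Its shorter core ACANNNTGT, which lies within the palindrome, occurred in 6.85% of windows, and the hexamer TGTTCT, also part of it, in 19%. In the lines that follow, capitals mark the match.
Sgk1, full palindrome, chr10:21993671-21993745, plus strand, first matched base at -189 from the start site: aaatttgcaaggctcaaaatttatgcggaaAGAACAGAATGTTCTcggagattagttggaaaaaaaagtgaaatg
Sgk1, core at another start site, chr10:21978515-21978583, plus strand, at -127: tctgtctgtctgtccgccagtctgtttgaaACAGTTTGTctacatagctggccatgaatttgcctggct
Tsc22d3, hexamer, chrX:140600672-140600737, minus strand, at -185: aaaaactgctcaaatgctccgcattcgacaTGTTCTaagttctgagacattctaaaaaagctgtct
The windows of Fkbp5, Nr3c2, Hsd11b1 and Klf9 held none of these letters. A match describes the sequence of the window, and no binding was measured in these samples.

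The first comparison set aortic against muscle endothelium. The largest difference among the 7 genes was in Hsd11b1, which was 19-fold brighter in aorta. Sgk1, Nr3c1 and Tsc22d3 were modestly brighter in muscle. In this comparison 4 of the 7 genes passed limma at an adjusted p of 0.05, while 46.3% of all 26753 probes tested did. The count is therefore close to the background, and the median of all probes itself lay at -0.27 (aorta minus muscle). Each slide held 1 tissue, so slide and tissue cannot be told apart.

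The receptors came first by role. Nr3c1, the glucocorticoid receptor, was readily detected on all 24 arrays with its brightest probe A_52_P138090. In aorta, experiments 1, 2 and 3 gave 3.69, 3.45 and 3.76 in WT chow, 3.75, 3.43 and 4.19 in WT HFD, 3.34, 3.32 and 3.87 in KO chow, and 3.47, 3.36 and 4.10 in KO HFD. In muscle the values were 3.65, 3.62 and 4.34 in WT chow, 3.96, 4.26 and 4.46 in WT HFD, 3.87, 4.07 and 4.11 in KO chow, and 4.04, 4.26 and 4.53 in KO HFD. The tissues overlapped across all arrays, but the muscle array was the brighter one in 11 of 12 matched pairs. The aorta minus muscle difference was -0.45 (SE 0.14, limma adjusted p = 0.012), or -0.18 relative to the median of all probes. It had the same sign for the other 3 Nr3c1 probes, from -0.60 to -1.18, but it missed the threshold without experiment 1 (-0.52, limma adjusted p = 0.0757), without experiment 2 (-0.35, 0.196) and after quantile normalization (-0.30, 0.194).

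Nr3c2, the mineralocorticoid receptor, was dim but well above background on all arrays with probe A_52_P378137. Its levels ran from -5.15 to -3.99 over the 12 aortic arrays and from -4.83 to -3.27 over the 12 muscle arrays. Both tissues overlapped widely, and the difference of -0.33 (SE 0.21, limma adjusted p = 0.21) did not pass the test, although it did with strain, diet and experiment as a block (adjusted p = 0.0471). Its other 2 probes lay near background, at means close to -8, and were well above it on 0 and 2 of the 24 arrays.

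Hsd11b1, the enzyme that restores active glucocorticoid, separated the tissues completely. In aorta its log2 signal was 4.91, 3.13 and 4.76 in WT chow, 4.71, 4.58 and 4.12 in WT HFD, 3.06, 2.98 and 3.74 in KO chow, and 4.57, 4.77 and 4.08 in KO HFD. In muscle it was 0.62, -0.88 and -0.91 in WT chow, 1.37, -1.05 and -0.91 in WT HFD, 1.25, -1.59 and -0.72 in KO chow, and 1.68, 0.39 and -0.87 in KO HFD. The lowest aortic array stood above the highest muscle array, as for 5.64% of all probes in either direction. The difference was 4.25 (SE 0.38, limma adjusted p = 5.3e-08), with aorta brighter in 12 of 12 pairs. In muscle, the arrays of experiment 1 were the brightest of their group in all 4 groups. These arrays were scanned in a session apart from experiments 2 and 3.

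Hsd11b1 is also a gene of fibroblasts, and the fibroblast list (Col1a1, Col1a2, Col3a1, Pdgfra, Dcn, Lum and Dpt, all 7 with a probe) did not overlap between the tissues. Within groups, the Hsd11b1 signal moved with the summed fibroblast signal across the 12 muscle arrays (r = 0.97, rho = 0.94, exact permutation p = 0.00154, adjusted over 4 relations p = 0.00309). With slide means removed r was 0.85, and without the 2 arrays farthest from the median it was 0.96. Across the 12 aortic arrays r was 0.63 (rho = 0.67, exact permutation p = 0.0787, adjusted p = 0.0787), 0.87 with slide means removed and 0.65 without the 2 farthest arrays. In such bulk samples, fewer cells of a type and less RNA per cell cannot be told apart, and the part of fibroblast RNA in the tissue difference was not tested.

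**Figure D1:**
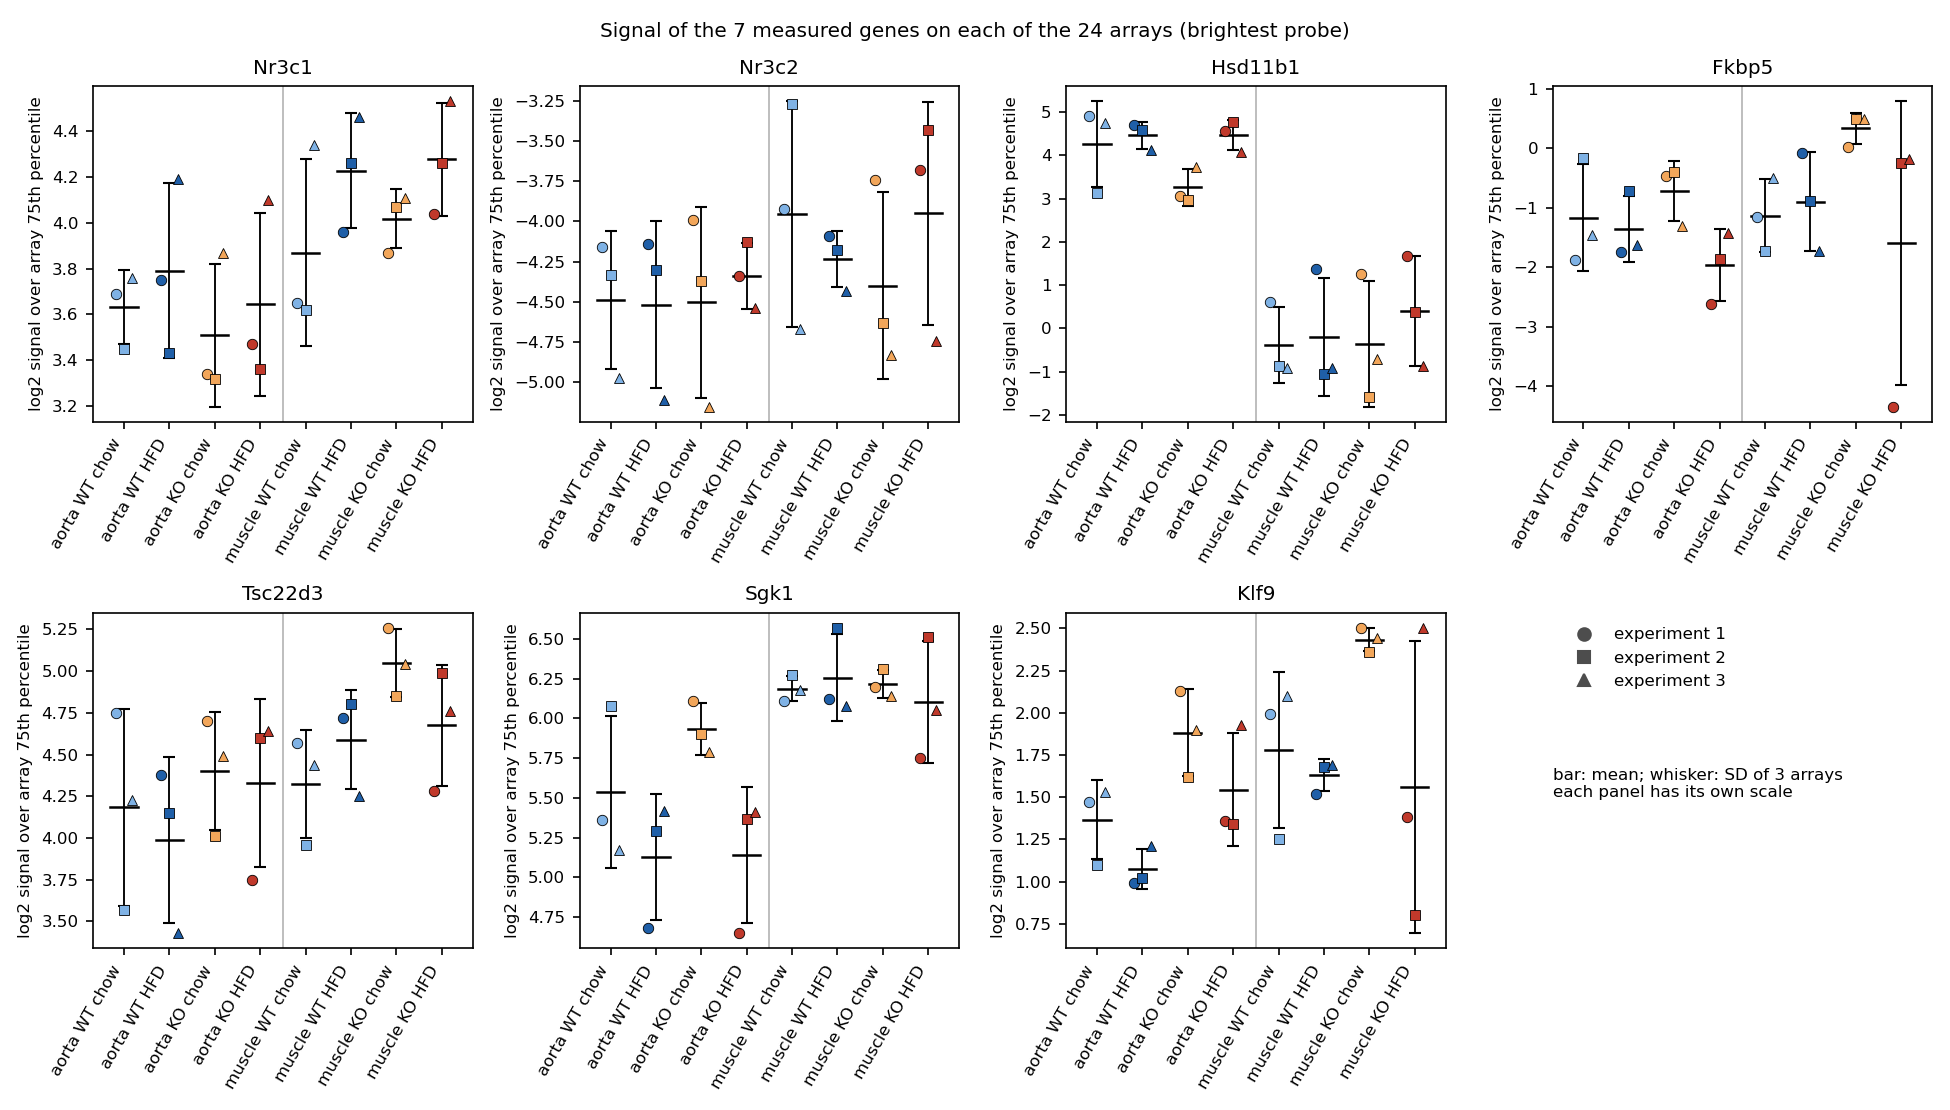
Log2 signal over the 75th percentile (vertical axis, its own scale in each panel) for the 7 measured genes in the 8 groups, on the brightest probe. Points are arrays with the shape giving the experiment, bars are means and whiskers SD of 3 arrays, and strain is as labelled. Hsd11b1 lay between 2.98 and 4.91 on all aortic arrays and between -1.59 and 1.68 on all muscle arrays.

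Among the induced targets, Sgk1, a kinase that regulates ion channels and transporters, was well above background on all 24 arrays. In aorta it measured 5.36, 6.08 and 5.17 in WT chow, 4.68, 5.29 and 5.42 in WT HFD, 6.11, 5.90 and 5.79 in KO chow, and 4.65, 5.37 and 5.41 in KO HFD. In muscle it measured 6.11, 6.27 and 6.18 in WT chow, 6.12, 6.57 and 6.08 in WT HFD, 6.20, 6.31 and 6.14 in KO chow, and 5.75, 6.51 and 6.05 in KO HFD. Muscle was brighter in 12 of 12 pairs, although the 2 ranges overlapped between 5.75 and 6.11. The difference was -0.75 (SE 0.14, limma adjusted p = 0.00033) and -0.48 relative to the median of all probes.

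Sgk1 followed the endothelial marker list closely. Within groups, its signal and the summed signal of the 10 endothelial markers gave r = 0.98 in aorta (rho = 0.97, exact permutation p = 0.000772, the smallest that the permutations allow, adjusted p = 0.00309). With slide means removed r stayed at 0.98, and without the 2 farthest arrays it was 0.97. In muscle r was 0.88 (rho = 0.89, exact permutation p = 0.00386, adjusted p = 0.00514), then 0.67 with slide means removed and 0.69 without the 2 farthest arrays. The endothelial list was lower in aorta than in muscle, and its part in the Sgk1 difference was not tested.

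Tsc22d3, which encodes the leucine zipper protein GILZ, ranged from 3.43 to 4.75 over the aortic arrays and from 3.96 to 5.26 over the muscle arrays. The tissues overlapped, with muscle brighter in 11 of 12 pairs. The difference was -0.43 (SE 0.17, limma adjusted p = 0.046), and only -0.16 relative to the median of all probes. It missed the threshold without any 1 experiment (adjusted p 0.0744 to 0.212), after quantile normalization (-0.26, adjusted p = 0.191) and for the second probe (-0.42, adjusted p = 0.089).

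Klf9, a zinc finger factor, and Fkbp5, the co-chaperone that dampens the receptor, gave no call between the tissues. Klf9 differed by -0.39 (SE 0.17, limma adjusted p = 0.065, and 0.0114 with strain, diet and experiment as a block) on its brightest probe and by -0.82 (adjusted p = 0.0014) on its second one. Fkbp5 differed by -0.48 (SE 0.40, limma adjusted p = 0.33) on its brightest probe and by 0.34 and 0.79 on its other 2 probes, so the sign depended on the probe.

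Most neighbours in the order of the 8 groups did not differ beyond their spread. For Hsd11b1 the groups next to each other at the top and at the bottom of the order were closer than their SD, and the step between the lowest aortic and the highest muscle group was 2.86. On the brightest probes, muscle KO chow led the order for Tsc22d3 (5.05 ± 0.20, SD, n = 3), Klf9 (2.43 ± 0.07) and Fkbp5 (0.34 ± 0.27), in each case by more than the larger SD of the neighbouring groups. Other probes did not share these leads for Fkbp5, where an aortic KO group was highest on both, or for Tsc22d3, where the lead was within the SD. No neighbouring groups of Sgk1, Nr3c1 or Nr3c2 were farther apart than that SD.

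Other genes of the pathway were read from fixed lists of 74 genes, of which 69 could be tested over both tissues. Between the tissues 19 were called higher in aorta and 22 higher in muscle, beside 15.9% and 30.3% of all probes. Among 11 genes that glucocorticoids repress, 5 were higher in aorta and 2 in muscle, with a median of 0.99. These included the cytokine Il6 (4.94, SE 0.55) and the chemokines Ccl2 (3.27, SE 0.32) and Cxcl1 (3.06, SE 0.39), each with a limma adjusted p below that of Sgk1. Ptgs2, the inducible cyclooxygenase, was well above background on only 8 of the 12 muscle arrays and was at least 78.3-fold higher in aorta (limma adjusted p = 3.2e-08). Such a bound sets the mean of the brighter arrays against the dim arrays, each raised at least to its lowest signal well above background. Of 35 other induced targets, 11 were higher in aorta and 13 in muscle, among them metallothionein Mt1 (3.45, SE 0.27) and the muscle ubiquitin ligase Trim63. Trim63 was well above background on 2 of 12 aortic and 10 of 12 muscle arrays and was at least 6.44-fold higher in muscle (limma adjusted p = 0.000238), and the skeletal muscle fibre list was higher in muscle by the ranges given above. Immediate early genes, which rise during cell isolation, had summed signals of 8.20 to 9.06 in aorta and 7.42 to 8.41 in muscle, and their part in these differences was not tested.

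The second comparison set HFD against chow in the same strain, tissue and experiment. No member was called in any of these comparisons after adjustment. With limma at an unadjusted p of 0.05, the counts were 0 of 7 in aorta WT, 2 in aorta KO, 0 in muscle WT and 2 in muscle KO. The ratio test named in the methods gave 0 in each, before and after adjustment. Of all probes tested, 0%, 0%, 0% and 0.00393% were called by limma in these 4 comparisons, and 5.7%, 11.2%, 12.1% and 8.51% had an unadjusted p under 0.05.

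Fkbp5 gave the largest HFD differences on its brightest probe, in the arrays labelled KO. Its aortic signal was -0.46, -0.40 and -1.30 in KO chow and -2.61, -1.86 and -1.42 in KO HFD. In muscle it was 0.03, 0.49 and 0.49 in KO chow and -4.34, -0.25 and -0.18 in KO HFD. Chow and HFD did not overlap in either tissue, as for 14.1% of all probes in aorta KO and 8.98% in muscle KO. The mean difference was -1.24 (SE 0.41, limma adjusted p = 0.41) in aorta and -1.93 (SE 0.79, limma adjusted p = 0.58) in muscle, and neither passed.

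A single array carried most of the muscle value. The HFD to chow differences in muscle KO were -4.37, -0.75 and -0.67, so the mean without experiment 1 was -0.71. In WT, Fkbp5 was -1.88, -0.16 and -1.46 on chow against -1.74, -0.72 and -1.62 on HFD in aorta, and -1.16, -1.73 and -0.50 against -0.07, -0.89 and -1.73 in muscle, with overlap in both tissues. The difference between the responses of KO and WT was -1.05 (SE 0.58) in aorta and -2.17 (SE 1.12) in muscle, with limma adjusted p of 1.00 and 0.999. No member was called for this difference, nor at an unadjusted p under 0.05, beside 2.55% of all probes in aorta and 4.11% in muscle at the latter. On the other Fkbp5 probes the chow and HFD groups of aorta KO overlapped. A_51_P383689 differed by 0.33 (SE 0.43) there, while A_52_P337899 was lower on HFD in all 3 experiments, by -0.82, -0.23 and -0.67. In muscle, A_51_P383689 differed by -1.35 (SE 0.62) in WT and by -0.57 (SE 0.62) in KO. The KO minus WT response on that probe was 0.78 (SE 0.88), opposite in sign to the brightest probe. A_52_P337899 differed by 0.02 (SE 0.21) in muscle WT and by -0.15 (SE 0.21) in muscle KO.

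Hsd11b1 had a HFD to chow difference of 1.51, 1.79 and 0.34 in aorta KO, with a mean of 1.21 (SE 0.48, limma adjusted p = 0.44) and no overlap of the 2 groups. In aorta WT the difference was -0.20, 1.45 and -0.65, which changed sign between experiments. The fibroblast list summed to 8.42, 8.46 and 8.32 in aorta KO chow and to 8.60, 9.25 and 8.37 in KO HFD. Its part in the Hsd11b1 difference was not tested. Sgk1 was lower on HFD in every aorta KO experiment, by -1.46, -0.54 and -0.38, again with no overlap. Chow and HFD did not overlap for 14.1% of all probes in aorta KO, and Sgk1 did not reach an unadjusted limma p under 0.05. The endothelial list summed to 8.44, 8.12 and 7.84 in aorta KO chow and to 6.91, 7.66 and 7.81 in KO HFD, and its part in the Sgk1 difference was not tested. Klf9 in muscle KO differed by -1.12, -1.56 and 0.06, with a mean of -0.88 (SE 0.36, limma adjusted p = 0.58). No gene of the set moved by more than 1 log2 unit the same way in all 3 experiments, a criterion met upwards and downwards by 0.728% and 0.85% of all probes in aorta WT, 1.81% and 1.13% in aorta KO, 0.868% and 0.943% in muscle WT, and 0.46% and 0.534% in muscle KO.

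**Figure D2:**
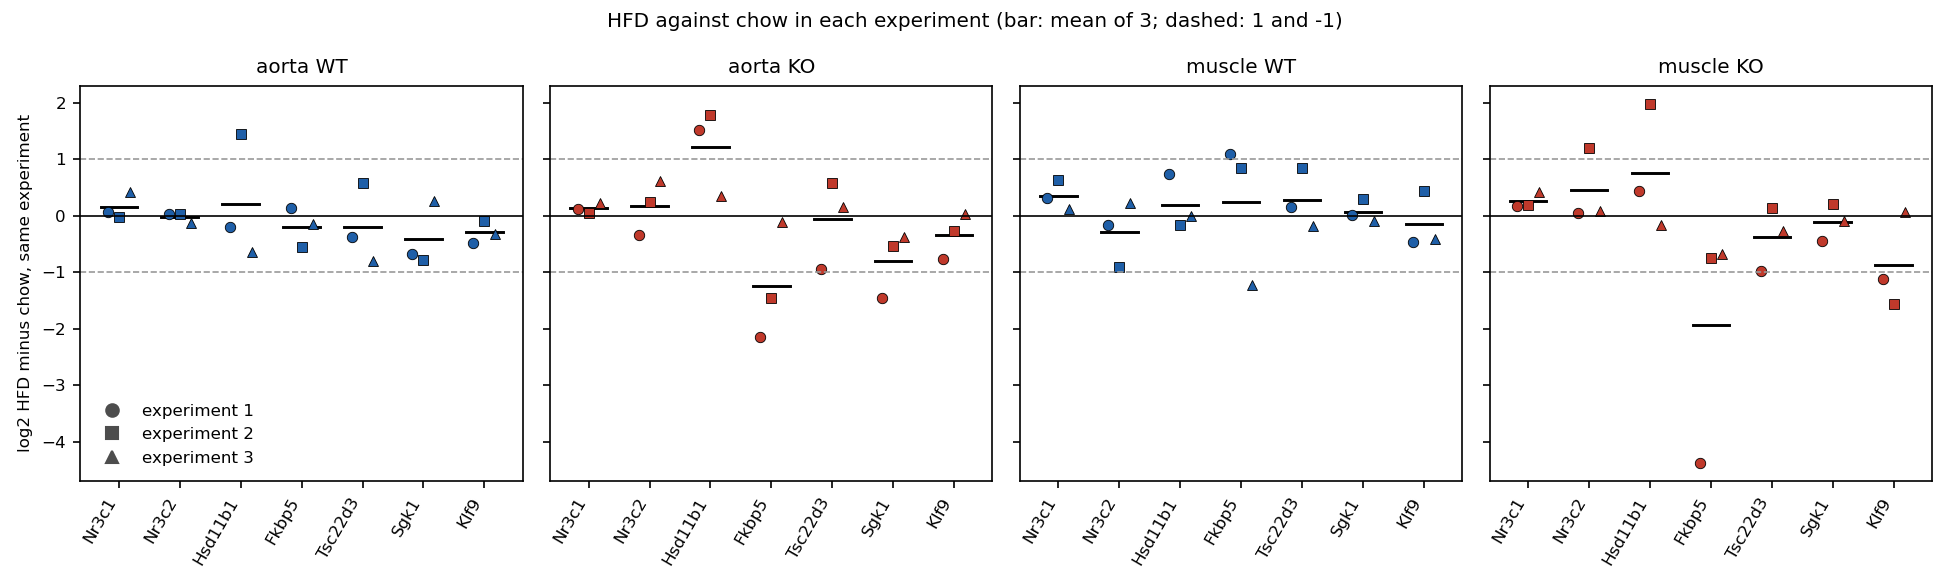
Log2 signal on HFD minus chow within an experiment (vertical axis) for the 7 genes, in the 4 combinations of tissue and strain as labelled. Points are the 3 experiments, bars their mean, and dashed lines mark 1 and -1. The lowest point is Fkbp5 in muscle KO of experiment 1 at -4.37, while the other 2 experiments of that panel gave -0.75 and -0.67.

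Taking both tissues and strains in 1 fit gave 12 HFD to chow pairs. Aorta and muscle came from the same pools of mice, so these were 6 pairs of pools, each read in 2 tissues. The fit took the 12 pairs as separate, so its p-values and pair counts overstate the number of independent pools. No member was called by limma after adjustment, while 2.81% of all probes were. At an unadjusted p of 0.05, 4 of the 7 genes passed, beside 22.6% of all probes. Klf9 differed by -0.41 (SE 0.16, limma adjusted p = 0.16), Fkbp5 by -0.78 (SE 0.35, adjusted p = 0.22), Hsd11b1 by 0.59 (SE 0.24, adjusted p = 0.18) and Nr3c1 by 0.23 (SE 0.10, adjusted p = 0.20). The Nr3c1 difference was small, and HFD was the brighter array in 11 of 12 pairs, a count whose share over all probes was not computed. The second brightest Nr3c1 probe, A_52_P63106, was well above background on all 12 arrays of each tissue. It was also higher on HFD, by 0.46, in 11 of 12 pairs. The third, A_52_P254174, was higher on HFD in only 6 of 12 pairs. The dimmest Nr3c1 probe, A_51_P355693, was called on its own (0.84, SE 0.19, limma adjusted p = 0.046), but it was dim and well above background on 19 of 24 arrays. Sgk1 differed by -0.31, Tsc22d3 by -0.09 and Nr3c2 by 0.08. When the diet response of aorta was set against that of muscle, limma called no member, and none had an unadjusted p under 0.05, beside 9.16% of all probes.

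The lists around the set gave calls and the set none, but they held 69 tested genes beside 7. The 2 counts are therefore not comparable. In the same fit over both tissues and strains, 5 of 69 pathway genes fell on HFD and none rose, a share of 7.25%. Of all probes, 1.27% fell and 1.54% rose. Of 35 other induced targets, 31 lay below 0, with a median of -0.26 beside 0.00 for all probes, and 4 were called. Of 11 repressed targets, 10 lay above 0 (median 0.33) and none was called, with 2 at an unadjusted limma p under 0.05. No chaperone or coregulator was called either, with 5 of 10 and 5 of 9 at an unadjusted p under 0.05.

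Slc10a6, a steroid sulphate carrier, fell in all 12 pairs. It measured 2.89, 2.81 and 2.72 in aorta WT chow against 2.33, 2.03 and 1.88 on HFD, and 3.50, 3.47 and 3.55 in aorta KO chow against 2.51, 2.76 and 2.59 on HFD. In aorta the chow and HFD groups of each strain did not overlap, as for 7.23% of all probes in WT and 14.1% in KO. In muscle it measured 3.36, 3.20 and 3.25 in WT chow against 2.87, 2.62 and 1.99 on HFD, and 3.83, 4.14 and 3.80 in KO chow against 1.94, 3.36 and 3.62 on HFD, a more uneven fall. The difference over all pairs was -0.83 (SE 0.15, limma adjusted p = 0.025). Map3k6, a stress kinase, fell by 0.76 (SE 0.15, limma adjusted p = 0.031), and Lpin1, a phosphatidate phosphatase, fell by 0.87 (SE 0.20, adjusted p = 0.046), both in 12 of 12 pairs. Lcn2, the secreted lipocalin, fell by 1.47 (SE 0.23, adjusted p = 0.020), and Abcb1b, a drug and steroid efflux pump, fell by 1.14 (SE 0.22, adjusted p = 0.033), each in 11 of 12 pairs. None of the 69 genes was called when any 1 experiment was left out, when limma called 14, 0 and 9 of all probes without experiments 1, 2 and 3. At an unadjusted limma p under 0.05 there were then 15 to 22 of the 69 genes, beside 13.2% to 21.7% of all probes.

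Within a tissue no pathway gene passed adjustment over both strains, and limma called 0.0626% of all probes in aorta and 0.287% in muscle. In aorta 11 of 66 genes moved the same way in all 6 pairs (16.7%, beside 10.4% of all probes), and the largest were Lcn2 (-1.28), the cell cycle inhibitor Cdkn1a (-1.07), the kinase Pdk4 (-0.91), the sulphotransferase Sult1a1 (-0.83), Lpin1 (-0.81) and Slc10a6 (-0.81). In muscle 18 of 66 did so (27.3%, beside 11.4%). These included Ccl2 (1.98), the metabolic factor Klf15 (-1.18), Lpin1 (-0.93), Slc10a6 (-0.86) and the small GTPase gene Rhob (-0.77), with limma adjusted p of 0.11 to 0.18. Trim63 was also among them, well above background on all 6 chow and 4 of 6 HFD arrays of muscle. Its mean was at least 6.8-fold lower on HFD, and it was not called (limma adjusted p = 0.17). The fall was uneven, with pairs from -7.50 to -0.42. In experiment 1 it read -0.95 on chow and -1.37 on HFD in WT, and -0.72 and -1.37 in KO.

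Clock genes moved with the diet in the same arrays. Of 11 clock genes tested, 5 rose and 1 fell on HFD, among them Nr1d1 (2.19, SE 0.24), Dbp (2.07, SE 0.12) and Nr1d2 (1.31, SE 0.11), each higher in 12 of 12 pairs, and Arntl (-0.87, SE 0.14), all by limma at an adjusted p of 0.0201 or less. Dbp lost its call without experiment 2 (limma adjusted p = 0.0653). The other clock genes called lost theirs whichever experiment was left out (limma adjusted p of 0.0539 to 0.255). In muscle WT, Arntl had means of 1.76 on chow and 1.61 on HFD, and it rose in experiment 2. Glucocorticoid release follows the daily cycle, and no hormone level was used here. The summed clock signal was highest in KO HFD of experiment 1, at 5.97 in aorta and 6.06 in muscle, the pool in which Fkbp5 was lowest in both tissues on its brightest probe but not on the other 2. The adipocyte list in aorta was 7.43 to 8.64 on chow and 6.30 to 7.21 on HFD, without overlap. The fibroblast list in muscle had means of 5.53 in WT chow and 6.38 in WT HFD, and of 5.67 and 6.79 in KO, with overlap in both strains. The part of clock phase and of adipocyte and fibroblast RNA in the HFD differences was not tested.

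**Figure D3:**
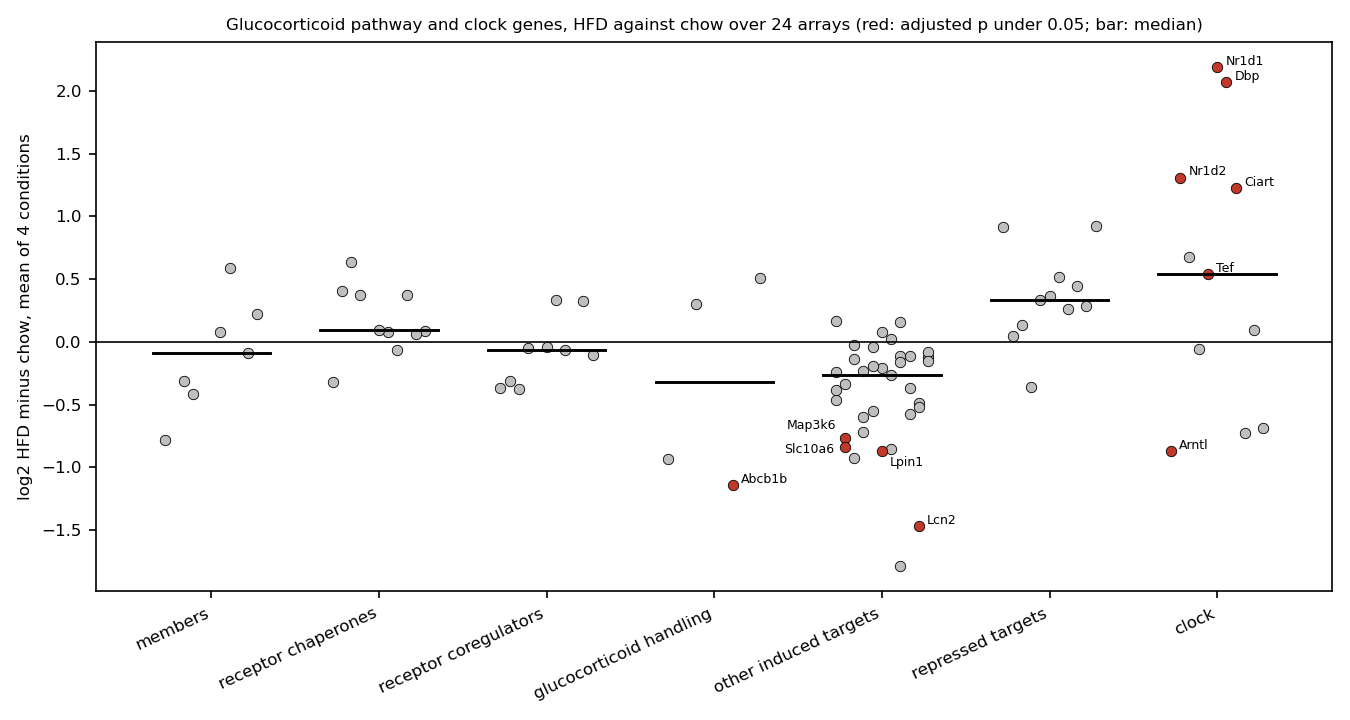
Log2 signal on HFD minus chow, averaged over both tissues and both strains (vertical axis), for each gene tested in the set, in the pathway lists and in the clock list. Each point is a gene, red marks a limma adjusted p under 0.05, and bars are medians. The induced targets had a median of -0.26, the repressed targets 0.33, and no point of the set itself is red.

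The third comparison set the arrays labelled KO against those labelled WT. No member was called on its brightest probe in any of the 4 strain comparisons within a tissue and diet. Of all probes, 0.0117%, 0.00391%, 0% and 0% were called in aorta on chow, aorta on HFD, muscle on chow and muscle on HFD. At an unadjusted limma p under 0.05 there was 1 member, in muscle on chow, beside 4.33%, 1.12%, 2.4% and 3.15% of all probes in the same order. In muscle on chow, KO lay above WT without overlap for Fkbp5 (by 1.47), Tsc22d3 (0.73) and Klf9 (0.65), as did 7.87% of all probes in one direction or the other. Klf9 measured 2.50, 2.36 and 2.44 in KO and 1.99, 1.25 and 2.10 in WT there. In aorta Klf9 was again higher in KO without overlap, by 0.52 on chow, with 2.13, 1.62 and 1.90 against 1.47, 1.10 and 1.53, and by 0.47 on HFD, with 1.36, 1.34 and 1.93 against 0.99, 1.02 and 1.21. The corresponding shares of all probes were 6.22% and 4.21%. On the second Klf9 probe, A_52_P675996, KO and WT overlapped in all 3 of these comparisons.

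Over all 24 arrays, a contrast added after the data were seen, Klf9 was higher in KO in 10 of 12 pairs (0.39, SE 0.17, limma adjusted p = 1.00). Tsc22d3 was higher in 9 of 12 pairs (0.34, SE 0.17, adjusted p = 1.00). Neither passed, and 0.127% of all probes were called, with 4.06% at an unadjusted p under 0.05. The 24 arrays came from 12 pools of mice, and this contrast counted the 2 tissues of a pool as separate. Its p-values and pair counts therefore overstate the replication.

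The Fkbp5 probes disagreed in this comparison. The brightest one, A_52_P481493, differed by 0.15 (SE 0.40, limma adjusted p = 1.00), with KO higher in 8 of 12 pairs. The second one, A_51_P383689, was called (1.63, SE 0.30, limma adjusted p = 0.028), with KO higher in 11 of 12 pairs, as for 1.37% of all probes at that count or more. The third one, A_52_P337899, also had KO higher in 11 of 12 pairs (1.23, SE 0.35, adjusted p = 0.43).

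The second probe separated the strains most clearly in aorta. It read -2.46, -2.71 and -2.48 in WT chow and -2.78, -1.70 and -2.67 in WT HFD, against -0.84, -1.13 and -1.23 in KO chow and -1.05, -1.29 and 0.15 in KO HFD. In muscle it read -2.16, -1.64 and -2.79 in WT chow and -1.88, -4.60 and -4.17 in WT HFD, against -1.06, -0.79 and -0.81 in KO chow and -2.66, -1.19 and -0.51 in KO HFD. Only in muscle on HFD did the strains overlap on this probe. The call was lost without experiment 2 (1.67, limma adjusted p = 0.794), without experiment 3 (1.24, adjusted p = 1.00) and with the slide as a block (1.63, adjusted p = 0.0877). Probe positions within Fkbp5 were not used here, so whether the probes read the same transcripts was not tested.

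**Figure D4:**
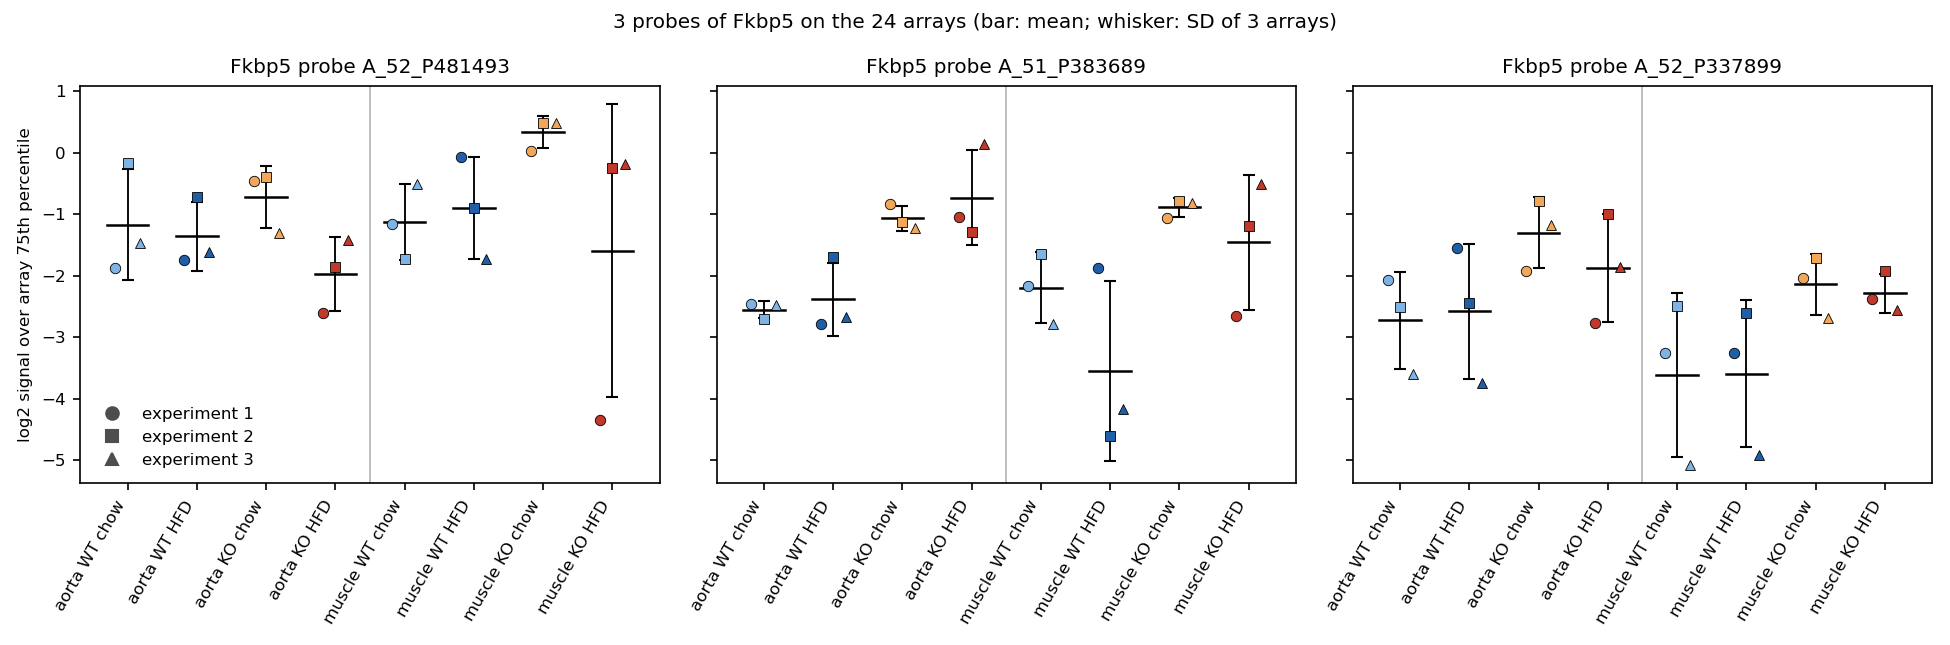
Log2 signal over the 75th percentile (vertical axis) for the 3 Fkbp5 probes in the 8 groups, with strain as labelled. Points are arrays with the shape giving the experiment, bars are means and whiskers SD of 3 arrays. In aorta, A_51_P383689 had all KO arrays at -1.29 or above and all WT arrays at -1.70 or below, while the KO and WT arrays of A_52_P481493 overlap.

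Of the other pathway genes, Map3k6 was higher in KO in 12 of 12 pairs in the contrast over all 24 arrays (0.82, SE 0.15, limma adjusted p = 0.028). The clock gene Nr1d1 was likewise higher in KO, by 1.21 (SE 0.23, adjusted p = 0.048). Both calls were lost whichever experiment was left out, with limma adjusted p of 0.184 to 0.85 for Map3k6 and 0.282 to 1.00 for Nr1d1. Map3k6 read 3.21, 3.64 and 3.13 in aorta WT chow against 4.42, 4.20 and 3.85 in KO chow, without overlap.

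Aorta and muscle of a group and experiment came from the same pool of mice, so each of the 12 pools gave a pair of arrays hybridised on different slides. Both arrays of a pool were scanned in the same session, which was 1 session for experiment 1 and another for experiments 2 and 3. The part of the scan session in the relations below was not tested. For Tsc22d3, the deviation from the group mean had the same sign in both tissues in 11 of 12 pools, as it did for Klf9. The share of all probes at that count was not computed. The pools fell into 2 separate sets, so no common correlation is given. In the 4 pools with an aortic deviation below 0, Tsc22d3 was lower than its group mean by 0.38 to 0.61 in aorta and by 0.20 to 0.40 in muscle. These were 1 of each group, but deviations from a mean of 3 arrays always place 1 or 2 of them below 0. Within the other 8 pools, a set chosen by the same aortic values, r was 0.47 and rho 0.38.

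For Klf9, r between the tissues over the 12 pools was 0.83 (rho = 0.90, exact permutation p = 0.000772, the smallest possible, adjusted over 7 relations p = 0.0054). It was 0.77 without the 2 farthest pools and 0.68 with experiment means removed. Over the 12 pools, an r as high or higher was seen for 6.98% of 23755 probes, and the median over all probes was 0.40. Without experiment 1, r was 0.91 (exact permutation p = 0.125), and 11.2% of probes had an r as high or higher. The 2 pools then left in each group have mirrored deviations, so this r is weaker evidence. For Nr3c2, r was 0.71 (rho = 0.64, exact permutation p = 0.0131, adjusted p = 0.0306), but it was -0.08 once experiment means were removed. For Fkbp5, Sgk1, Nr3c1 and Hsd11b1, r was 0.25, 0.50, 0.54 and 0.33, with adjusted permutation p of 0.14 to 0.54.

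**Figure D5:**
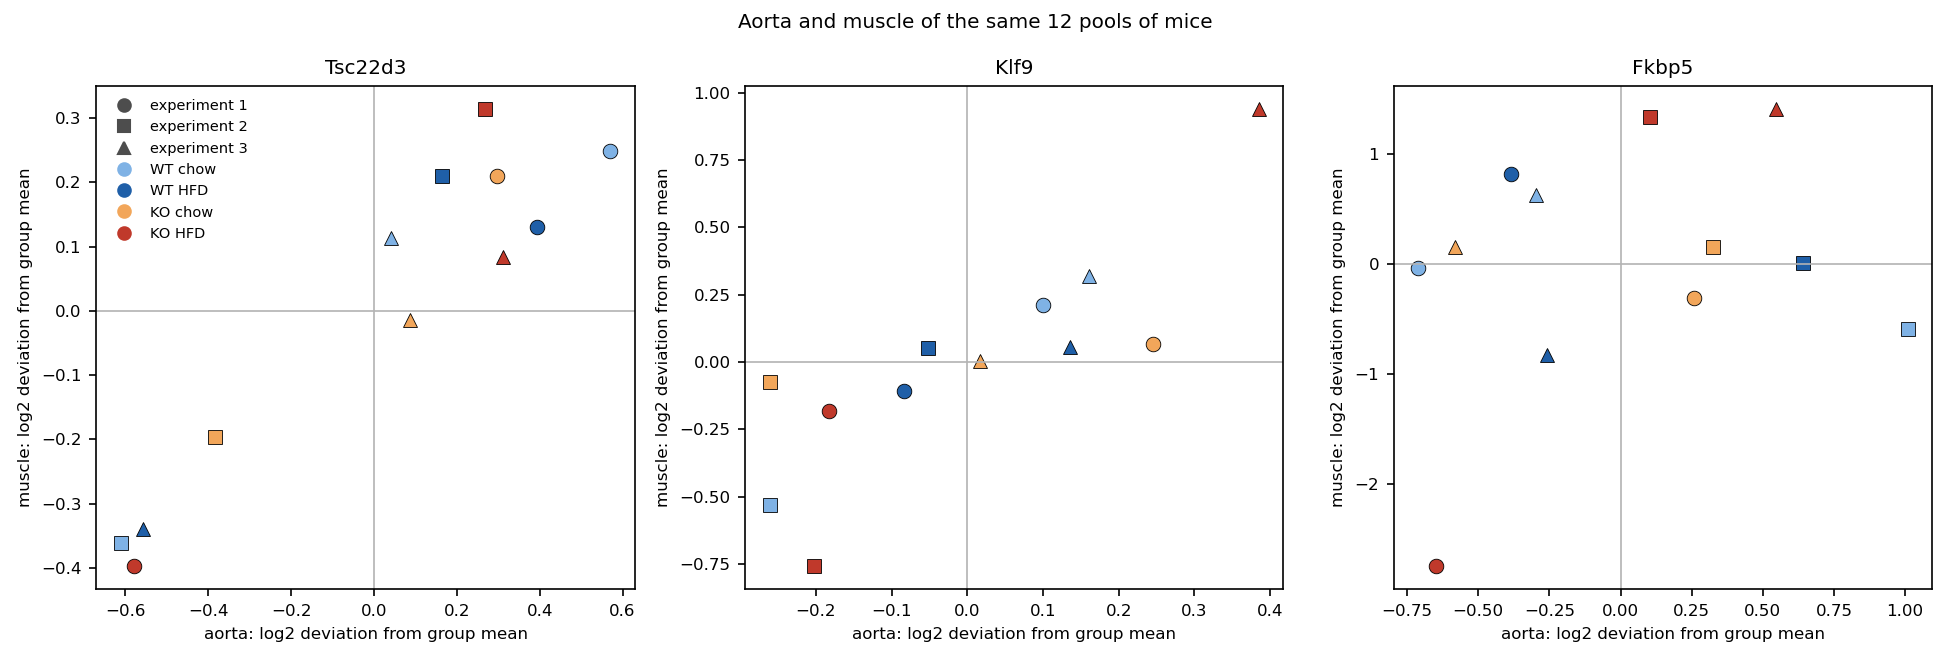
Deviation of the log2 signal from the group mean in muscle (vertical axis) against that in aorta (horizontal axis) for Tsc22d3, Klf9 and Fkbp5, with 1 point for each of the 12 pools of mice, coloured by strain as labelled and diet. For Tsc22d3, 4 pools lie apart at the lower left, for Klf9 the points follow a common trend (r = 0.83), and for Fkbp5 they do not (r = 0.25).

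Variation between arrays of a group was also compared among the genes. Of 12 relations of Fkbp5 with the other 6 genes, none passed adjustment. The closest were those with Sgk1 (r = 0.78, rho = 0.73, exact permutation p = 0.0316, adjusted p = 0.188) and Hsd11b1 (r = -0.76, rho = -0.70, exact permutation p = 0.0332, adjusted p = 0.188) in aorta. In muscle, Fkbp5 and Tsc22d3 gave r = 0.70 (rho = 0.49, exact permutation p = 0.0471, adjusted p = 0.188), which dropped to 0.44 without the 2 arrays farthest from the median. With slide means removed these r were 0.67, -0.74 and 0.82.

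The genes whose pattern was most like that of each member were found over the 24 arrays, after the tissue mean was removed, among 23755 probes. These are descriptions, since the arrays share groups and slides. Fkbp5 was closest to Chka (r = 0.80), Prkce (0.76) and Ate1 (0.74). Tsc22d3 was closest to Lgalsl (0.80), Klf15 (0.74) and Vmn1r79 (0.74), and Klf9 to Trp53inp1 (0.82), Oip5os1 (0.75) and Cbll1 (0.75). Sgk1 was closest to Fli1 (0.96), an endothelial transcription factor, with 4930486L24Rik and Smagp at 0.94. Hsd11b1 was closest to Efs (0.93), Adamts2 (0.92) and Htra3 (0.92), of which Adamts2 processes procollagen. Nr3c1 was closest to Cdyl (0.86), Fbxo22 (0.86) and Sec24a (0.85), and Nr3c2 to A230072E10Rik (0.91), Mocs1 (0.90) and Dchs1 (0.88).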

How the data were processed

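Per the labels, cRNA of each pool was labelled with Cy3 and hybridised to single-colour Agilent arrays. The deposited files hold each spot's processed intensity, written by Feature Extraction (version 10.5.1.1 per the file headers, 9.1 in the submitters' processing notes). A deposited log2 table served as an alternative, and it equalled the log2 processed intensity plus 1 constant per array for 99.6% to 99.8% of probes (within 0.01). Here log2 processed intensity minus the 75th percentile of each array was used, control and outlier spots were left out and spots were averaged per probe. A probe was tested if all arrays of some group had it well above background, with limma 3.58.1 in R 4.3.3 and Benjamini-Hochberg adjustment over 25543 (aorta), 25456 (muscle) or 26753 probes (both). Within a tissue, replicates are separate pools of mice from 3 experiments. Fits over both tissues counted the 2 tissues of a pool as separate arrays, except where strain, diet and experiment formed a block. Diet was fitted with a block for each strain and experiment, as the methods compare HFD with chow within an experiment, and the deviations of such pairs correlated by 0.0077 to 0.456. Strain and tissue were fitted as group means. Scripts were tested on simulated data. Relations between arrays used deviations from group means and exact permutation within groups, two-sided. Members and gene lists were chosen with earlier results of these data known. The text names all members, up to 6 pathway genes per tissue with the largest diet change of 1 sign in 6 pairs, up to 6 with the largest tissue difference, and the 3 most alike genes of each member. Slc10a6, Map3k6, Lpin1, Lcn2, Abcb1b and the clock genes called were named after their values were seen. Alternatives were another background correction (normexp), quantile normalization, other filters, other blocks, the next brightest probe and leaving out each experiment. Gene symbols came from RefSeq accessions (GRCm38.p6), with which 27471 of 41174 probes matched. Array number limits the precision.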

Additional observations from a re-analysis of the deposited data

How the results depend on the processing

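The count of 4 members called between aorta and muscle was 2 after quantile normalization and 2 to 3 when 1 experiment was left out. With strain, diet and experiment as a replicate block it was 6, adding Klf9 (limma adjusted p = 0.0114) and Nr3c2 (0.0471). Hsd11b1 and Sgk1 kept their direction and call in every alternative run, from 3.86 to 4.84 and from -0.80 to -0.51. For diet and strain, 0 members were called on the brightest probe in every alternative run, the slide as a replicate block and no replicate block included. The number of members past 1 log2 unit in all experiments rose from 0 to 3 without experiment 3 (Fkbp5 and Hsd11b1 in aorta KO, Klf9 in muscle KO), and was 0 to 3 over the experiments left out. The count of 5 other pathway genes called on HFD was 9 with normexp, 9 with quantile normalization, 1 with no filter on dim probes, 11 with probes well above background on every array, 13 with the slide as a replicate block and 7 with no replicate block, while the calls over all probes were 752 as reported and 1314, 1162, 194, 1386, 1829 and 548 in the same order. It was 0 to 0 when each experiment was left out in turn, where fewer arrays entered the fit. Other causes were not tested. No result reversed its sign on the same probe, but the next brightest Fkbp5 probe had the opposite sign in 10 of 18 contrasts, among them aorta against muscle (0.34) and HFD in aorta KO (0.33). For Nr3c1, Tsc22d3 and Klf9 the next brightest probe had the opposite sign in 5, 3 and 2 of 18 contrasts. Dim probes limit Nr3c2, Trim63 and Ptgs2.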
